A study of Arabidopsis thaliana with 15 samples.

Results

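Pectate lyase-like genes of Arabidopsis thaliana are described here across roots treated with the auxin NAA or with naxillin. The group is 10 genes, given as locus tags, each read by the probe set that the platform's annotation pairs with that gene alone. For AT5G04310, which has 2 such probe sets, the one with the higher mean over the 15 arrays was used. The 10 genes stand among 13286 genes named in this way and 22746 tested probe sets. The Arabidopsis family was listed at 26 loci, so another 16 belong to it, and the 13 of these that a probe set named serve for comparison.

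Pectate lyases cut de-esterified homogalacturonan, the main pectin of the plant cell wall and of the layer that glues neighbouring cells together, by a calcium-dependent elimination reaction. Pectin methylesterases remove the methyl groups first, and polygalacturonases cut the same backbone by hydrolysis. In roots, a new lateral root forms deep in the tissue and has to pass between overlying cells, and loosening of pectin between those cells is one known part of its emergence. The 10 genes belong to the family by sequence, and no separate role is given here for any of them.

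The roots were those of Col-0, grown so that lateral roots can be induced on demand: NPA, a blocker of polar auxin transport, holds them back until an inducing compound is given. All seedlings were germinated on 10 µM NPA, and the group before treatment was sampled 3 days after germination. The other groups were moved for 2 h or 6 h to 10 µM NAA (1-naphthaleneacetic acid), a synthetic auxin, or to 50 µM naxillin, which the submitters call a non-auxin-like inducer. There were 3 arrays in each of the 5 groups, taken in 3 independent experiments, and for every array 500 pieces of root lacking the meristem were pooled. No group was moved to medium free of both compounds, so a change from before treatment includes transfer and time, and the compounds were given at different doses. Values are log2 RMA values, a scale on which a difference of 1 is a doubling of the array signal, and n = 3 per group throughout. Array medians lay between 7.09 and 7.18, and correlations across probe sets between arrays of a group were 0.984 to 0.996. In whole root sections, fewer cells with a transcript and less of it per cell cannot be told apart.

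Of the listed root markers, EXPA7 and EXPA18, expansin genes of root hairs, were the 2 of 5 root hair genes named, and no endodermis, xylem or phloem gene of the lists had a named probe set. The summed level of these 2 was 7.84 to 8.34 before treatment, 8.56 to 9.22 and 6.63 to 7.15 at 2 h and 6 h of NAA, and 9.0 to 10.15 and 8.02 to 8.93 at 2 h and 6 h of naxillin. Both were called higher at 2 h of naxillin (4.4% of all probe sets) and lower at 6 h of NAA (29.4%). At 2 h of NAA 1 of the 2 was called higher (10.5% of all probe sets). For both genes the arrays of NAA 2 h were all above those before treatment. The 3 of 12 shoot and photosynthesis genes measured (LHCB4.1, LHCB4.2 and RCA) summed to 11.65 to 12.01 before treatment, 10.83 to 11.14 and 9.44 to 9.90 with NAA, and 10.82 to 11.43 and 11.01 to 11.60 with naxillin. All 3 were called lower at both times of NAA, where 15.3% (2 h) and 29.4% (6 h) of all probe sets were. At 2 h of naxillin 2 of them were called lower (6.16% of all probe sets). The part of these shifts in the results below was not tested.

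Of the 10 pectate lyase-like genes, 7 rose by 6 h of NAA, where 22.8% of all probe sets were called higher. None was called at either time of naxillin, where 10.6% and 0.963% of all probe sets were called at 2 h and 6 h. AT1G67750 and AT1G04680 had the largest rises, to 77.6-fold and 48.7-fold the signal before treatment by 6 h of NAA. AT4G13710 reached 10.1-fold, AT4G13210 rose by 3.51 log2 units from a level not shown to lie above background, and AT4G24780, AT5G04310 and AT3G27400 rose by less. AT5G48900, AT3G07010 and AT5G63180 did not pass the test against before treatment at either time, and their levels were not shown to lie above background. A gene is said to have risen or fallen where limma's moderated test gave an adjusted p under 0.05, adjusted by Benjamini and Hochberg over all 22746 probe sets.

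**Figure D1:**
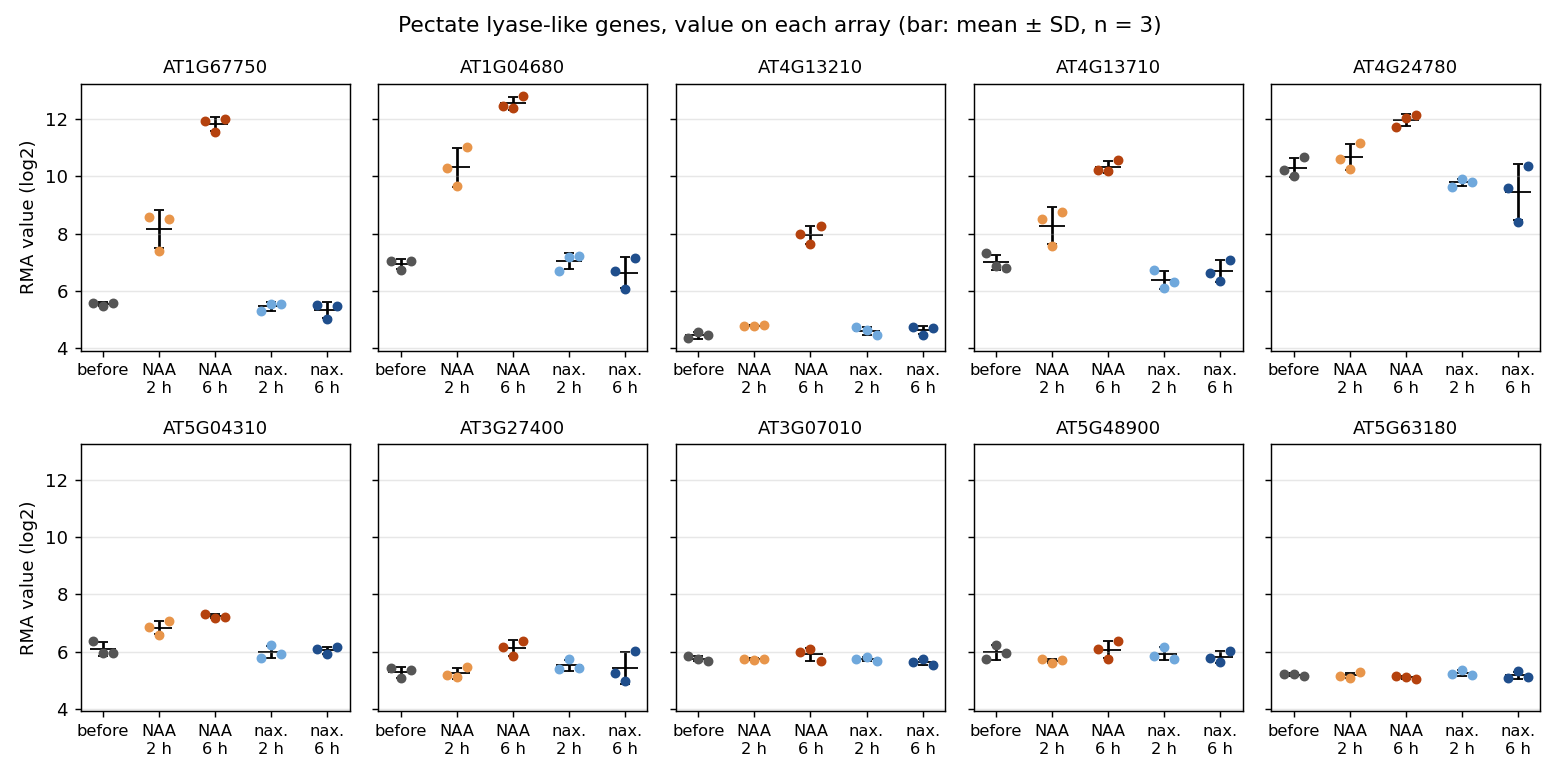
Value of each of the 10 genes on each of the 15 arrays (y axis, RMA value on the log2 scale; x axis, the group), with the 3 arrays of a group as points, a horizontal mark at the mean and bars of 1 SD. AT1G67750 sits between 11.55 and 11.99 at 6 h of NAA and at or below 5.58 before treatment and with naxillin, while AT5G63180 stays between 5.05 and 5.37 on all arrays.

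AT1G67750 lies on chromosome 1 from 25401514 to 25403595 in TAIR10.1, the assembly of all coordinates here. Its level was 5.58, 5.47 and 5.58 before treatment, 8.59, 7.40 and 8.51 at 2 h of NAA, and 11.92, 11.55 and 11.99 at 6 h. With naxillin it was 5.30, 5.55 and 5.53 at 2 h and 5.51, 5.02 and 5.47 at 6 h. Both NAA groups lay apart from all other arrays and from each other, while the naxillin groups overlapped with the arrays before treatment. The rise was 2.62 log2 units at 2 h (SE 0.25, adjusted p = 5.16e-06 by limma) and 6.28 at 6 h (SE 0.25, adjusted p = 1.68e-10). Before treatment the gene stood at the 33.7th to 35.1th percentile of its arrays, a level not shown to lie above background, so the fold change is a difference of RMA values. At 6 h of NAA it stood at the 96.9th to 98.0th percentile.

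AT1G04680 (chromosome 1, 1303467 to 1307973) had the largest rise at 2 h of NAA. It was at 7.04, 6.74 and 7.03 before treatment, 10.29, 9.65 and 11.02 at 2 h of NAA, and 12.44, 12.37 and 12.81 at 6 h. Naxillin gave 6.71, 7.18 and 7.21 at 2 h and 6.70, 6.07 and 7.15 at 6 h. As with AT1G67750, neither NAA group overlapped with any other group, and the remaining 3 groups overlapped with each other. The rise with NAA was 3.38 at 2 h (SE 0.31, adjusted p = 3.26e-06) and 5.61 at 6 h (SE 0.31, adjusted p = 4.22e-09). The rise at 2 h was 60.4% of that at 6 h on the log2 scale, against 41.8% for AT1G67750.

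AT4G13710 (chromosome 4, 7962428 to 7966521) rose at both times of NAA, as the preceding genes did, by a smaller amount. Its arrays read 7.31, 6.87 and 6.81 before treatment, 8.52, 7.56 and 8.75 at 2 h of NAA, and 10.21, 10.19 and 10.58 at 6 h. With naxillin they read 6.74, 6.10 and 6.31 at 2 h and 6.64, 6.36 and 7.09 at 6 h. All arrays of NAA 2 h were above those before treatment, and all of NAA 6 h above those of NAA 2 h. At 2 h of naxillin all 3 arrays were below those before treatment, a difference of −0.61 (SE 0.28) that did not pass the test (adjusted p = 0.199). The rise with NAA was 1.28 at 2 h (SE 0.28, adjusted p = 0.00416) and 3.33 at 6 h (SE 0.28, adjusted p = 2.61e-07).

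AT4G13210 (chromosome 4, 7669948 to 7673376) was the late riser among the strongly changed genes. It read 4.34, 4.58 and 4.45 before treatment, 4.77, 4.78 and 4.80 at 2 h of NAA, and 8.0, 7.64 and 8.26 at 6 h. Naxillin gave 4.73, 4.65 and 4.46 at 2 h and 4.73, 4.47 and 4.73 at 6 h. The 3 arrays of NAA 2 h were all above those before treatment, but the difference of 0.32 (SE 0.14) did not pass the test (adjusted p = 0.106). It passed with the arrays of that contrast alone (adjusted p = 0.0453) and under poly-A spike-in scaling (0.42, adjusted p = 0.0375). At 6 h the difference was 3.51 (SE 0.14, adjusted p = 1.41e-10), of which 9.18% was present at 2 h. Levels before treatment lay at the 17.3th to 21.7th percentile of the arrays and were not shown to be above background.

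AT4G24780 (chromosome 4, 12770221 to 12772479) was already near the top of the arrays without NAA. Before treatment it was at 10.23, 10.02 and 10.66, the 88.5th to 92.9th percentile of the arrays. NAA gave 10.60, 10.25 and 11.16 at 2 h, which overlapped with the values before treatment, and 11.73, 12.02 and 12.13 at 6 h, which did not. Naxillin gave 9.64, 9.90 and 9.82 at 2 h, all below the arrays before treatment, and 9.60, 8.40 and 10.34 at 6 h, the widest spread of any group of this gene. The rise at 6 h of NAA was 1.66 (SE 0.37, adjusted p = 0.00147) and the difference at 2 h was 0.37 (SE 0.37, adjusted p = 0.547). With naxillin the differences were −0.52 at 2 h (adjusted p = 0.441) and −0.86 at 6 h (95% interval −1.65 to −0.07, adjusted p = 0.327), and neither passed.

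AT5G04310 (chromosome 5, 1202967 to 1207946) rose within a narrow range. It was at 6.39, 5.97 and 5.95 before treatment, 6.85, 6.59 and 7.06 at 2 h of NAA, and 7.33, 7.18 and 7.22 at 6 h. The naxillin arrays lay between 5.79 and 6.23 at both times and overlapped with those before treatment. The rise with NAA was 0.73 at 2 h (SE 0.15, adjusted p = 0.00235) and 1.14 at 6 h (SE 0.15, adjusted p = 1.43e-05). The gene's second probe set gave 0.55 at 2 h (SE 0.21, adjusted p = 0.0736) and 1.06 at 6 h (SE 0.21, adjusted p = 0.000652), so that both probe sets passed at 6 h and one of them at 2 h.

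AT3G27400 (chromosome 3, 10140200 to 10143249) stayed low throughout, with all group means under 7.12, the median of all values. Its levels were not shown to lie above background. It read 5.42, 5.07 and 5.35 before treatment, 5.18, 5.10 and 5.47 at 2 h of NAA, and 6.16, 5.85 and 6.38 at 6 h. The 6 h arrays were all above those before treatment, by 0.85 on average (SE 0.22, adjusted p = 0.00503). The naxillin arrays ran from 5.40 to 5.75 at 2 h and from 4.99 to 6.04 at 6 h, and overlapped with those before treatment.

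The other 3 genes held a narrow range of low values. These were not shown to lie above background, so a lack of change may also be a lack of detection. AT5G48900 (chromosome 5, 19825078 to 19829140) lay between 5.61 and 6.37 on all arrays, and its 5 group means spanned 0.39. AT3G07010 (chromosome 3, 2212289 to 2216483) lay between 5.55 and 6.10, with a span of means of 0.27. AT5G63180 (chromosome 5, 25340914 to 25343369) had a span of 0.15. Neighbouring groups in the order of their means overlapped for all 3 genes. Their 95% intervals for the difference at 6 h of NAA were −0.26 to 0.46, −0.06 to 0.39 and −0.28 to 0.08, in the same order. With poly-A spike-in scaling AT3G07010 passed at 6 h of NAA (0.44, adjusted p = 0.00449), as it did without NAA_6h replicate 3 (0.29, adjusted p = 0.0166). For AT5G48900 all arrays of NAA 6 h were above those of NAA 2 h, without passing (0.39, adjusted p = 0.0794). That difference passed without NAA_6h replicate 2 (0.55, adjusted p = 0.0185) and with poly-A spike-in scaling (0.57, adjusted p = 0.014). At 2 h its naxillin arrays were all above those of NAA (0.25, adjusted p = 0.398).

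Against before treatment, 4 of the 10 genes rose and 0 fell at 2 h of NAA, where 10.5% of all probe sets were called higher and 15.3% lower. At 6 h 7 rose and 0 fell, where 22.8% of all probe sets were called higher and 29.4% lower. The median difference of the 10 was 0.34 at 2 h and 1.40 at 6 h, beside −0.03 at both times over all probe sets. The 10 genes were chosen with earlier results of these data known, so these counts and medians describe them and do not test the family. Arrays did not overlap and were higher with NAA for 5 of the 10 at 2 h (15.5% of all probe sets) and 7 at 6 h (26.1%). Leaving out 1 array gave 4 at 2 h and 7 or 8 at 6 h. Scaling on the poly-A spike-ins moved the median of all probe sets by 0.28 at 6 h of NAA; the 7 rises still passed and 8 genes then rose, but 48.1% of all probe sets were called higher under that scaling.

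**Figure D2:**
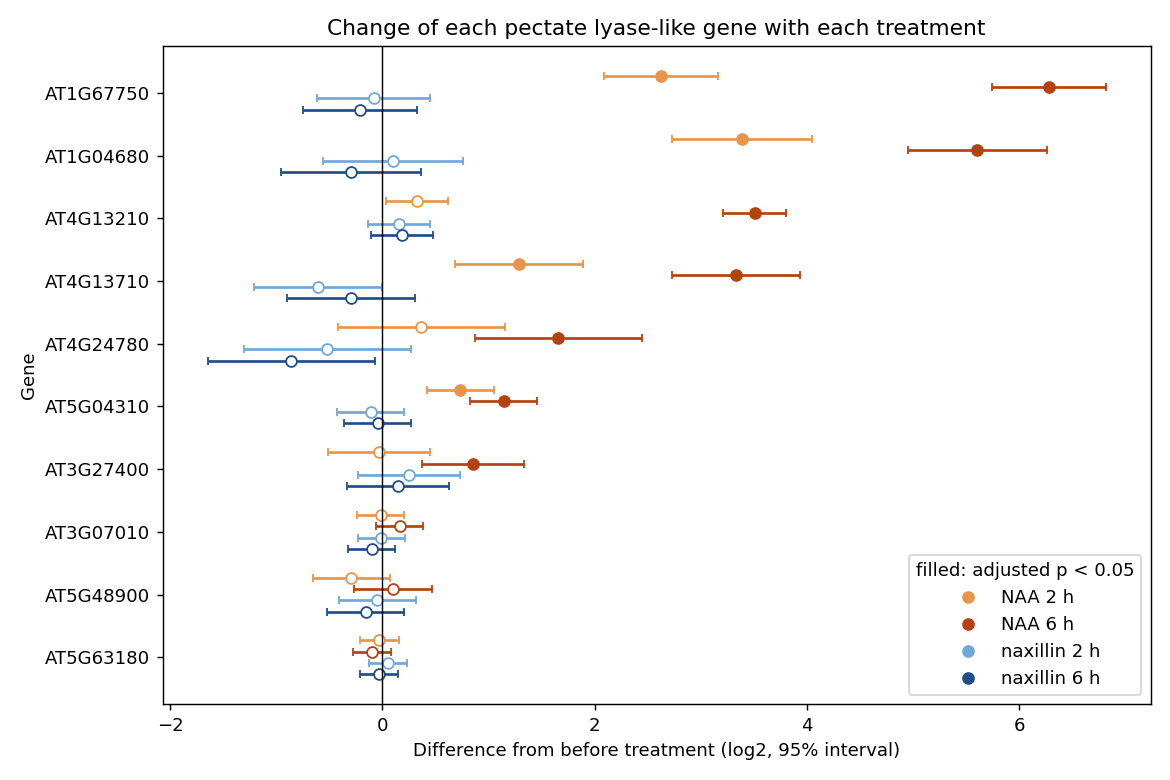
Difference of each gene from before treatment (x axis, log2, with the 95% interval of the fit; y axis, the 10 genes in order of their change at 6 h of NAA), with 1 colour per treatment and filled points where the adjusted p was under 0.05. All filled points belong to NAA, 4 at 2 h and 7 at 6 h.

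With naxillin, limma called 0 of the 10 genes at 2 h, where 10.6% of all probe sets were called, and 0 at 6 h, where 0.963% were. At an unadjusted p under 0.05 the count was 1 at each time, AT4G13710 at 2 h and AT4G24780 at 6 h, both on the lower side, beside 24.5% and 13.4% of all probe sets at that p. Arrays of naxillin at 2 h were all below those before treatment for 2 of the 10, AT4G13710 and AT4G24780 (17.9% of all probe sets). The median difference of the 10 was −0.03 at 2 h and −0.13 at 6 h, as against −0.03 at both times over all probe sets. For AT1G67750 the 95% interval at 6 h of naxillin was −0.74 to 0.33, and for AT1G04680 it was −0.96 to 0.36. The comparisons of NAA and of naxillin with before treatment share the same 3 arrays before treatment.

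Between 2 h and 6 h of NAA, 7 of the 10 genes rose and 0 fell, where 19.9% of all probe sets were called higher and 21.6% lower. AT1G67750 gained 3.65 (SE 0.25, adjusted p = 1.02e-07), AT4G13210 3.18 (SE 0.14, adjusted p = 1.17e-09) and AT1G04680 2.22 (SE 0.31, adjusted p = 5.11e-05). AT4G13710 gained 2.05, AT4G24780 1.29 and AT3G27400 0.88. AT5G04310 gained 0.41 (adjusted p = 0.0392) and was not called without replicate 1, 2 or 3 of NAA_6h or replicate 1 or 2 of NAA_2h (adjusted p from 0.0589 to 0.172), and its second probe set was not called (0.51, adjusted p = 0.069). AT4G24780 was not called without NAA_2h replicate 2 (1.08, adjusted p = 0.054). Between 2 h and 6 h of naxillin, limma called 0 of the 10, where 2.29% of all probe sets were called. At an unadjusted p under 0.05 the count was also 0, beside 14.4% of all probe sets.

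**Figure D3:**
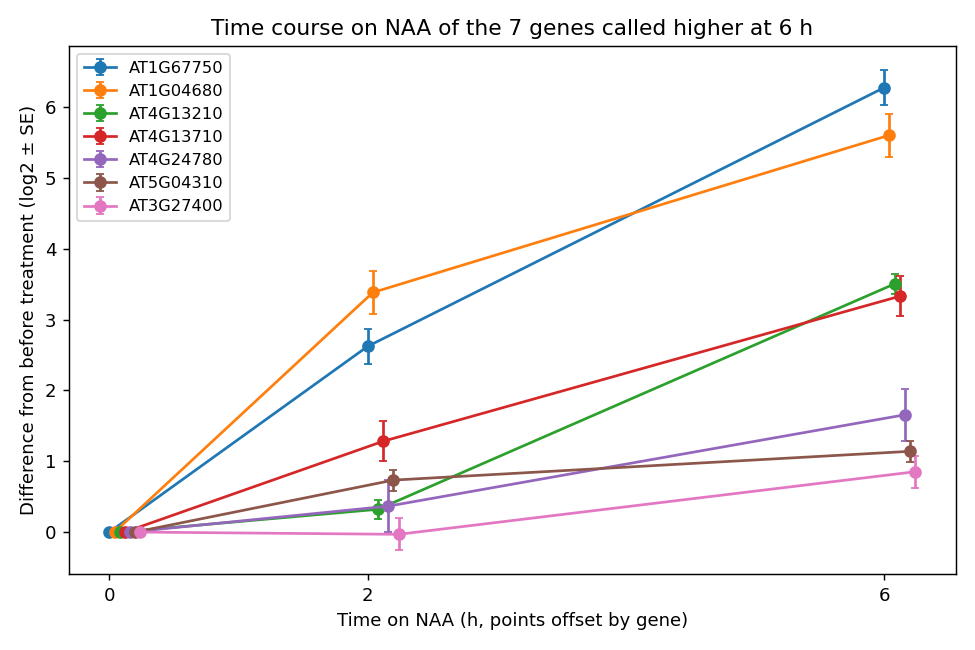
Difference from before treatment (y axis, log2, bars of 1 SE of the fit) at 0, 2 and 6 h on NAA (x axis, h) for the 7 genes that rose by 6 h, with before treatment set to 0 and points offset sideways by gene. AT1G04680 leads at 2 h with 3.38 and AT1G67750 at 6 h with 6.28, while AT4G13210 moves from 0.32 to 3.51 between these times.

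Set directly against NAA at the same time, naxillin gave lower levels of 4 of the 10 genes at 2 h, where 8.68% of all probe sets were called lower. These were AT1G04680 (−3.29, SE 0.31, adjusted p = 5.86e-06), AT1G67750 (−2.71), AT4G13710 (−1.89) and AT5G04310 (−0.85), whose second probe set was not called (−0.54, adjusted p = 0.112). AT4G24780 was lower with naxillin on all arrays (−0.89, 95% interval −1.68 to −0.10) without passing the test (adjusted p = 0.129), and it passed with the arrays of that contrast alone (adjusted p = 0.0339). None of the 10 was called higher, where 7.39% of all probe sets were. Arrays did not overlap and were lower with naxillin for 6 of the 10 (14.4% of all probe sets), among them AT4G13210, whose interval was −0.46 to 0.12.

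At 6 h 8 of the 10 were lower with naxillin than with NAA, where 23.5% of all probe sets were called lower and 27.2% higher. The differences were −6.49 for AT1G67750 (SE 0.25, adjusted p = 1.53e-10), −5.90 for AT1G04680 (SE 0.31), −3.63 for AT4G13710 (SE 0.28) and −3.32 for AT4G13210 (SE 0.14). AT4G24780 differed by −2.52 and AT5G04310 by −1.19. For these 6 genes all arrays of naxillin were below those of NAA (26.2% of all probe sets). AT3G27400 (−0.70, adjusted p = 0.0168) and AT3G07010 (−0.27, adjusted p = 0.0428) passed although their arrays overlapped. AT3G27400 was not called without naxillin_6h replicate 1 or 2 or NAA_6h replicate 3 (adjusted p 0.0659, 0.0914 and 0.0765). AT3G07010 was not called without naxillin_6h replicate 1 or 3 or NAA_6h replicate 1 or 2 (adjusted p 0.0837, 0.142, 0.126 and 0.202). Neither was called with the arrays of the contrast alone, with adjusted p = 0.0736 for AT3G27400 and 0.131 for AT3G07010. AT5G48900 differed by −0.26 (95% interval −0.62 to 0.10) and AT5G63180 by 0.07 (−0.12 to 0.25), and the latter became −0.28 (adjusted p = 0.0136) with poly-A spike-in scaling, which moved the median of all probe sets by −0.35 in this contrast.

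The naxillin minus NAA difference was lower at 6 h than at 2 h for 6 of the 10 genes. These passed limma's test of compound by time, where 15.2% of all probe sets were called on that side. Leaving out 1 array gave 4 to 6 genes, and AT4G24780 and AT3G27400 were the 2 that lost their call. The naxillin minus NAA difference went from −2.71 to −6.49 for AT1G67750 and from −0.17 to −3.32 for AT4G13210. For AT1G04680 it went from −3.29 to −5.90. For AT3G27400 it changed sign, from 0.28, which was not called, to −0.70. AT5G04310, which had 64.4% of its 6 h rise at 2 h, did not pass (−0.34, SE 0.21, adjusted p = 0.262).

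The 3 measured regulators of lateral root initiation, out of 10 genes listed for initiation and emergence, are set beside them here. LBD29, LBD16 and PUCHI are transcription factors of the founder cells and the young primordium. At 6 h of naxillin LBD29 rose from 6.73 to 8.22 (1.5, SE 0.20, adjusted p = 0.00615) and LBD16 from 7.37 to 8.03 (0.66, SE 0.13, adjusted p = 0.0332). PUCHI went from 4.77 to 5.59 without a call, although its arrays did not overlap with those before treatment. In that contrast 0.963% of all probe sets were called, so the absence of the 10 pectate lyase-like genes from the calls is near the background. At 2 h of naxillin 0 of the 3 regulators were called, where 10.6% of all probe sets were. At 6 h of NAA the rises were 6.57 for PUCHI, 5.69 for LBD29 and 3.64 for LBD16. The differences between these regulators and the pectate lyase-like genes were not tested.

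Of the other 13 named loci of the family, 9 had all group means under 5, between 3.75 and 4.92, and none of those 9 was called in any contrast. These values were not shown to lie above background. They include AT1G14420 (AT59), known as a pollen gene. The other 4 were measured at higher levels, and at 6 h of NAA 1 rose and 3 fell. In that contrast 22.8% of all probe sets were called higher and 29.4% lower. AT3G53190 rose by 0.62 (SE 0.17, adjusted p = 0.00706), from 8.55 to 9.17. AT3G55140 fell by 1.05 (SE 0.10, adjusted p = 5.65e-07), from 8.58 to 7.53, and had fallen by 0.44 at 2 h (adjusted p = 0.00388). AT3G09540 fell by 0.96 (SE 0.22, adjusted p = 0.00221) and AT3G24670 by 0.73 (SE 0.21, adjusted p = 0.00867). All 4 were called between naxillin and NAA at 6 h, AT3G53190 lower with naxillin (−1.33) and the other 3 higher by 0.93 to 1.16. Between the compounds at 6 h, 23.5% of all probe sets were called lower and 27.2% higher. Of the 13, limma called 0 at either time of naxillin against before treatment, where 10.6% (2 h) and 0.963% (6 h) of all probe sets were called. At an unadjusted p under 0.05 there were 3 at 2 h and 1 at 6 h, beside 24.5% and 13.4% of all probe sets. The nearest to a call was AT3G53190 at 6 h (−0.72, SE 0.17, adjusted p = 0.0688), all of whose arrays were below those before treatment.

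Of the enzymes that act on the same polymer, 44 pectin methylesterases were named out of 66 listed. At 6 h of NAA 3 rose and 13 fell (median −0.07), which is 6.82% and 29.5% of the 44, beside 22.8% and 29.4% of all probe sets. AT5G19730 fell by 3.22 (SE 0.17, adjusted p = 2.64e-09), AT5G09760 by 2.51 and AT3G49220 by 2.27. Of 43 named polygalacturonases, out of 61 listed, 8 rose and 8 fell (median 0.02), or 18.6% each way, below both shares over all probe sets. AT3G59850 rose by 5.08 (SE 0.19, adjusted p = 1.16e-10) and AT5G14650 by 2.71, while AT3G61490 fell by 2.16. With naxillin at 6 h 1 methylesterase, AT1G05310, was lower (−0.59, SE 0.08, adjusted p = 0.00653) and 0 polygalacturonases were called. In that contrast 0.963% of all probe sets were called. At 2 h of naxillin 1 methylesterase rose and 2 fell, and 4 polygalacturonases rose and 0 fell. Of all probe sets 4.4% were called higher and 6.16% lower at 2 h of naxillin.

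Between the compounds at 6 h, 8 of the 43 polygalacturonases were called higher with naxillin and 8 lower, or 18.6% each way. Of the 44 methylesterases 11 were called higher and 4 lower (25% and 9.09%). Over all probe sets 27.2% were called higher and 23.5% lower. Among the largest of these differences, the polygalacturonase genes AT3G59850 and AT5G14650 were lower with naxillin, by −5.16 and −3.24. The methylesterase genes AT5G19730 and AT5G53370 (PMEPCRF) were higher with naxillin by 2.85 and 2.52. Of 16 genes listed for homogalacturonan synthesis 1 was named, GAUT15, a galacturonosyltransferase gene of that family, and it rose by 0.84 at 6 h of NAA (SE 0.14, adjusted p = 0.000122).

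**Figure D4:**
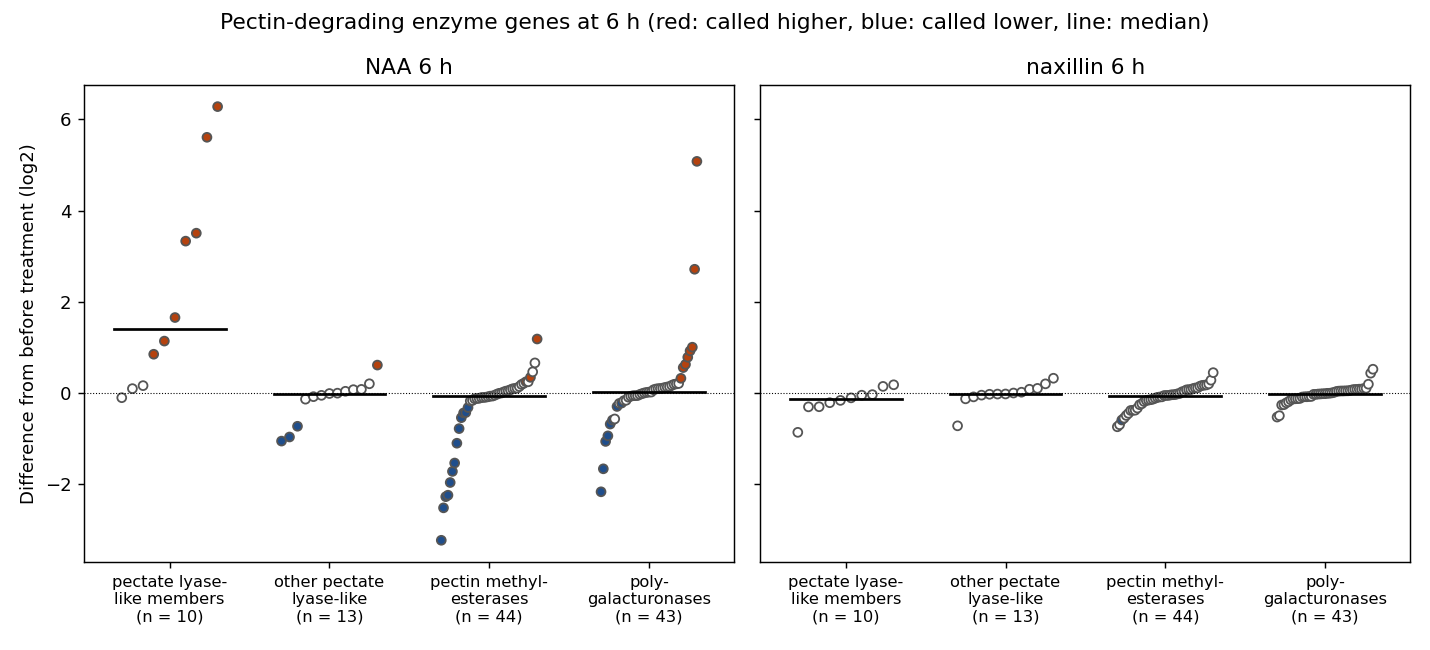
Difference from before treatment at 6 h (y axis, log2) of each named gene of 4 lists (x axis) with NAA on the left and naxillin on the right, points in order of size, red where called higher, blue where called lower and white where not called, with a line at the median of the list. With NAA the 10 pectate lyase-like genes reach 6.28 around a median of 1.40, and the other lists have medians of −0.01, −0.07 and 0.02. The 10 genes and the lists were chosen with earlier results of these data known, so the medians are a description and not a test.

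AT1G67750 had the widest span of group means, 6.49. Over the 15 arrays the 3 named genes outside the group most like it were the polygalacturonase gene AT3G59850 (Pearson r = 0.995), AT5G11010 (r = 0.995) and AT2G03850 (r = 0.995). AT3G59850 went from 4.36 before treatment to 6.72 and 9.44 at 2 h and 6 h of NAA and stood at 4.38 and 4.28 with naxillin. AT5G11010 moved over a smaller range, from 8.05 to 9.81 at 6 h of NAA. AT5G63180, whose mean was lowest relative to before treatment at 6 h of NAA, had no gene above r = 0.774, its value with AT1G66260. Within the group, AT1G67750 and AT1G04680 had r = 0.98, AT1G67750 and AT4G13710 r = 0.98, and AT1G04680 and AT5G04310 r = 0.968. These correlations run over arrays of 5 groups and mostly carry the difference between NAA and the other groups.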

How the data were processed

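The authors deposited log2 expression values for 22810 probe sets on 15 Affymetrix arrays, made with RMA (background correction, quantile normalization, probe set summary) in affy 1.36.0, per the submitters' processing notes. Whether any filter was applied is not given in the sources used here. After 64 control probe sets were left out, 22746 were tested, and 13436 of them named exactly 1 gene with a RefSeq locus tag. Groups came from the sample titles. limma 3.58.1 in R 4.3.3 estimated the 5 group means from all 15 arrays (10 residual degrees of freedom) in two-sided tests with Benjamini-Hochberg adjustment and a threshold of 0.05, and tested on simulated data. The number of arrays limits the precision. The arrays of a group are independent experiments, per the series' design text. The 10 genes and all lists were chosen with earlier results of these data known. Named genes were the 10 members, up to 3 called genes with the largest change per list in each contrast at 6 h against before treatment and up to 2 between the compounds at 6 h, and the 3 genes most correlated with each of 2 members. The 4 brighter loci of the other family members were named after their values were seen. Alternatives were a replicate block, the arrays of a contrast alone, a trended and robust prior, median centring, scaling on 24 poly-A spike-in probe sets, a filter on dim probe sets (12871 remained), averaging the 2 probe sets of AT5G04310, an adjusted p under 0.01, at least 2-fold, and leaving out each array. Promoter and protein sequences were not analysed here. Plots used matplotlib 3.10.9 under Python 3.11.15.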

Additional observations from a re-analysis of the deposited data

Results flagged for a closer look

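By limma's test of compound by time, the difference between the compounds changed from 2 h to 6 h for 6 of the 10 genes. The test contrasts the 12 treated arrays, with the spread estimated from all 15 arrays. Of all probe sets 15.2% were called on the same side. The differences below are naxillin minus NAA at 6 h, less the same at 2 h, in log2 units. AT1G67750 had −3.78 (adjusted p = 5.60e-06), AT4G13210 −3.15 (adjusted p = 1.50e-07) and AT1G04680 −2.62 (adjusted p = 0.000518). AT4G13710 had −1.74 (adjusted p = 0.00437), AT4G24780 −1.63 (adjusted p = 0.0284) and AT3G27400 −0.98 (adjusted p = 0.0302). AT4G24780 was not called without naxillin_2h replicate 2 or 3, replicate 1 or 2 of NAA_2h, or replicate 2 or 3 of NAA_6h (adjusted p from 0.053 to 0.0733). AT3G27400 was not called without naxillin_2h replicate 2, naxillin_6h replicate 1 or 2, NAA_2h replicate 1 or 2, or NAA_6h replicate 1 or 3 (adjusted p from 0.0586 to 0.0793). In all 6 genes the level with NAA rose between the times and the level with naxillin was not called different between them.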

How the results depend on the processing

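Counts of the 10 genes that were called moved by more than 1.5 times in 1 case: under poly-A spike-in scaling 10 genes, not 6, passed for compound by time, in a contrast whose median over all probe sets that scaling moved by −0.33 and where 38.1% of all probe sets were then called lower. Among differences called before or after the change of setting, 1 direction turned, that of AT5G63180 between the compounds at 6 h, −0.28 under the same scaling. Leaving out 1 array turned the sign of 21 of 90 differences, none of them called with all arrays. Leaving out 1 array gave 4 genes for NAA at 2 h, 7 to 8 at 6 h, 0 for naxillin at 2 h and 0 at 6 h. Between the compounds it gave 4 at 2 h and 6 to 7 at 6 h, over time 5 to 7 with NAA and 0 with naxillin, and for compound by time 4 to 6. Replicate numbers were shared between groups. Deviations from group means correlated above 0.1 for 7 of 10 pairs of arrays numbered 1, 6 of 10 numbered 2 and 10 of 10 numbered 3. Not all pairs passed that mark and the labels do not tie a number to an experiment, so the numbers were not taken as pairs. As a hint from the data, not the design, 11 of 15 arrays matched their own number best. With a replicate block 5 genes, not 4, were called between the compounds at 2 h, AT4G24780 among them (adjusted p = 0.0416). In that contrast the block called 4838 of all 22746 probe sets, where 1682 were called higher and 1975 lower without it. The counts of the 10 genes in the other contrasts did not change. Over all probe sets the block raised the calls for naxillin at 6 h from 219 to 523 and from naxillin 2 h to 6 h from 520 to 1048. Without dim probe sets 6 of the 10 genes were testable. AT4G13210 and AT5G04310 had a group mean over the cut of 7.12 at 6 h of NAA alone. AT1G67750, AT1G04680 and AT4G13710 had one at 2 h and 6 h of NAA alone. Only AT4G24780 had one without NAA, so this filter is not independent of the rises with NAA. Values near the lower quartile of an array, 4.70 to 4.81, limit what a fold change can show.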
